A study of Mus musculus with 3 samples.

Results

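The enzymes and the transporter that lead from L-arginine to nitric oxide and polyamines, and the enzyme that makes itaconate, were followed in mouse macrophages grown from bone marrow (BMDMs) and given lipoproteins of *Borrelia burgdorferi* (*Bb*LP). The 8 genes were *Nos2*, *Slc7a2*, *Ass1*, *Gch1*, *Arg1*, *Arg2*, *Odc1* and *Acod1*, taken by gene symbol, and each symbol matched 1 of the 32285 genes counted. BMDMs were grown from marrow of female C3H/HeN mice aged 6 to 8 weeks. Controls (Ctrl) were labelled untreated and given PBS according to the protocol. The other cells were given 1 µg/mL purified *Bb*LP, with an exposure of 1 hour in LP1 and of 4 hours in LP4. RNA of single cells was counted in 1 library per condition by the 3′ method, in which each captured molecule carries a unique molecular identifier (UMI). Conditions could not be tested against each other, since each has a single library. All intervals given here are exact 95% intervals that cover counting error only, and the time of exposure cannot be told apart from the library. By the study's methods Ctrl was collected after the same time as LP4, so in the ratios of LP1 over Ctrl the exposure and the earlier collection cannot be told apart.

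BMDMs are macrophages grown in culture from marrow precursors. Inducible nitric oxide synthase, encoded by *Nos2*, turns L-arginine into nitric oxide and citrulline, and inflammatory signals from Toll-like receptors and interferons are well known to switch the gene on in mouse macrophages. Arginine enters through the cationic amino acid transporter CAT2 (*Slc7a2*), argininosuccinate synthase (*Ass1*) starts the return of citrulline to arginine, and GTP cyclohydrolase (*Gch1*) makes the first step towards tetrahydrobiopterin, a cofactor of the synthase. The arginases (*Arg1*, cytosolic, and *Arg2*, mitochondrial) compete for arginine and yield ornithine, from which ornithine decarboxylase (*Odc1*) makes putrescine, the first polyamine. Aconitate decarboxylase (*Acod1*, also called *Irg1*) draws on the citrate cycle to make itaconate, a metabolite with antibacterial and immune regulatory actions.

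The genes lie on 6 chromosomes of the mouse build GRCm38. *Nos2* spans chr11:78920787-78960254 on the plus strand, *Slc7a2* chr8:40862396-40922308 and *Ass1* chr2:31470207-31520672, both on the plus strand. *Gch1* lies on the minus strand at chr14:47153895-47189413, and *Acod1* on the plus strand of the same chromosome at chr14:103046977-103056573. *Arg1* spans chr10:24915221-24927484 on the minus strand. *Arg2* (chr12:79130777-79156301) and *Odc1* (chr12:17544794-17551505) are on the plus strand of chromosome 12. *Arg2* overlaps 2 counted genes on the opposite strand, *Gm48780* and *Vti1b*. Whether the counting used strand is not given in the sources used here, so the counts of *Arg2* are uncertain to that extent.

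Promoter windows from RefSeq (GRCm38.p6) were at hand for 4 of the 8 genes. The 250 bases before the RefSeq start site are shown for *Acod1* and *Ass1*, whose level in LP4 was over 2-fold that in Ctrl, and for *Gch1*, whose level was not. The gene spans above come from another annotation, GENCODE. The spans of *Acod1* and *Ass1* begin before the RefSeq start site, so part of each window lies within its span. They cover chr14:103046762-103047011 (plus strand), chr2:31470020-31470269 (plus strand) and chr14:47189414-47189663 (minus strand). Capitals mark the motifs found.
Acod1: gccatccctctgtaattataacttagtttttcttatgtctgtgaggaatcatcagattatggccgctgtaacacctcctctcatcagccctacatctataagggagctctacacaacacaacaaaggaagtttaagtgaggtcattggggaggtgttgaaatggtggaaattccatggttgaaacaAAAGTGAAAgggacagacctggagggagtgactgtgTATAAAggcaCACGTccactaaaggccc
Ass1: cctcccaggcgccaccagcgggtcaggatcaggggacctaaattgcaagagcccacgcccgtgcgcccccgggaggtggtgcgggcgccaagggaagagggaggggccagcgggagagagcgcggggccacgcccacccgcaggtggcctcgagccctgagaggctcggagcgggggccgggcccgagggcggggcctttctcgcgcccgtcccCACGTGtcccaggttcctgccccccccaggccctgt
Gch1: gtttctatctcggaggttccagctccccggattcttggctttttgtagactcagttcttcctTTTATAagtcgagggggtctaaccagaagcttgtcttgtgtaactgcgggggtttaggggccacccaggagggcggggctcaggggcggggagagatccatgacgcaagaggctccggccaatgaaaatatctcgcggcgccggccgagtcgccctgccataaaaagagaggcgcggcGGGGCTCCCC

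The search covered both strands of windows running from 250 bases before to 50 after the start site. The motifs were NF-kB, the interferon motifs GAS (TTCNNNGAA) and ISRE core (TTTCNNTTT), AP-1 (TGANTCA), C/EBP (TTGCNNAA), E-box (CACGTG), the core of the hypoxia element (ACGTG) and the TATA box (TATAAA). In *Acod1* an ISRE core on the reverse strand began at base -64, a TATA box at -28 and a hypoxia element core at -18. In *Ass1* an E-box began at -36 and overlapped hypoxia element cores on both strands. In *Gch1* an NF-kB motif began at -10, and a TATA box letter match lay on the reverse strand at -188. The window of *Odc1*, which is not printed, held no motif searched. Of all 27025 windows, 10.7% held an ISRE core, 14.2% a TATA box, 7.24% an E-box, 19.7% a hypoxia element core and 8.18% an NF-kB motif. The GAS, AP-1 and C/EBP motifs, which none of the 4 windows held, were in 8.47%, 7.93% and 10.8% of all windows. The GC content of the *Acod1* window was 47.0% and that of *Odc1* 78.0%, with *Gch1* at 60.3%, *Ass1* at 74.0% and a median of 52.7% over all windows. These letter matches are descriptions and show no binding.

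The study's limits on cells (UMIs and genes both above 500, mitochondrial share below 5%) were applied. By these limits 6071 Ctrl, 5065 LP1 and 4670 LP4 cells were kept of 6123, 5119 and 5039 barcodes. The cells differed in depth, with a median of 5133 UMIs per cell in Ctrl, 9343 in LP1 and 11784 in LP4. Levels are therefore given as counts per 1000000 UMIs of the library (CPM), and shares of cells after drawing each cell down to 2000 UMIs. Between 4 and 10 barcode sequences were shared by each pair of libraries. All 9 macrophage markers were detected in each library, with a summed level between 17630 and 18154 CPM, and *Lyz2* and *Csf1r* were found in over 94.5% of the cells of every library. Markers of neutrophils summed to 451 to 707 CPM, those of dendritic cells to 222 to 235 CPM and those of fibroblasts to 4.29 to 19.7 CPM, with the highest neutrophil and fibroblast sums and the lowest dendritic cell sum in LP4, and their part in the results was not tested.

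Of the 8 genes, 4 were at least 2-fold higher in LP4 than in Ctrl, namely *Nos2*, *Ass1*, *Acod1* and *Slc7a2*, and none was 2-fold lower. Of the 14361 genes with at least 20 UMIs in these 2 libraries together, 11.6% were at least 2-fold higher and 15.6% at least 2-fold lower in LP4. After 1 hour none of the 8 genes was 2-fold higher than in Ctrl, beside 1.45% of all genes, and 1 (*Nos2*) was 2-fold lower, beside 3.15%. Between LP4 and LP1, 5 genes were at least 2-fold higher, the same 4 and *Arg1*, beside 10.9% of all genes, and none was lower, beside 12.5%. *Arg1* rests on 47 UMIs there and drops out at a minimum of 200. All 8 genes passed the 20 UMI minimum in each pair. The median of their log2 ratios stood at -0.23 (LP1 over Ctrl), 1.40 (LP4 over Ctrl) and 1.53 (LP4 over LP1), where the medians of all genes were -0.04, -0.15 and -0.10. Scaling by trimmed means (TMM) moved the median of all genes for LP4 over Ctrl to 0.02 and median-of-ratios scaling moved it to 0.06. The split over all genes became 14.4% higher and 12.1% lower with the former and 15.3% higher and 11.5% lower with the latter, and under both the same 4 of the 8 genes were higher.

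**Figure D1:**
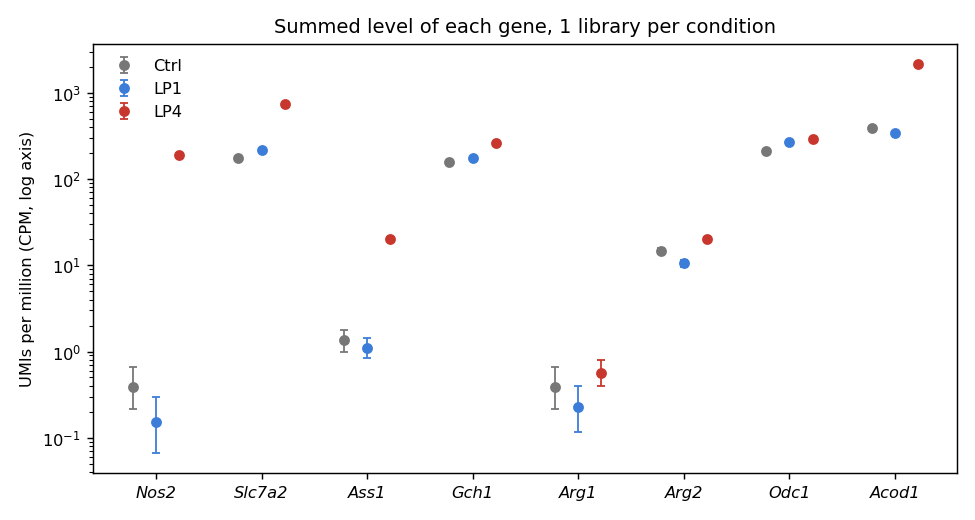
Summed level of each gene in Ctrl, LP1 and LP4, in CPM on a log axis, with exact 95% Poisson intervals (1 library per point). *Nos2* lay under 1 CPM in Ctrl and LP1 and at 190 CPM in LP4, while the 3 points of *Gch1* and of *Odc1* lay close together.

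*Nos2* was close to absent in Ctrl and LP1. Its transcript gave 14 UMIs in 6 of 6071 Ctrl cells, 8 UMIs in 6 of 5065 LP1 cells and 11689 UMIs in 1689 of 4670 LP4 cells. These counts correspond to 0.392 CPM in Ctrl (interval 0.214 to 0.658), 0.152 CPM in LP1 (0.0658 to 0.30) and 190 CPM in LP4 (187 to 194). The LP4 library thus stood alone, and the intervals of Ctrl and LP1 overlapped each other. The log2 ratio of LP4 over Ctrl was 8.92 (8.18 to 9.79), the second highest of the 14361 genes, and that of LP4 over LP1 was 10.29 (9.31 to 11.50), the highest of 14506. The log2 ratio of LP1 over Ctrl, -1.36 (-2.82 to -0.01), rested on 22 UMIs in all. The highest Ctrl cell held 6 of the 14 Ctrl UMIs, and the interval takes UMIs as independent of each other. All 14 Ctrl UMIs came from 1 cluster of cells, cluster A below.

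The transporter *Slc7a2*, unlike *Nos2*, was already well expressed in Ctrl. Ctrl gave 6271 of its UMIs, LP1 11539 and LP4 45374, or 176, 220 and 739 CPM. LP4 was 4.21-fold above Ctrl, with a log2 ratio of 2.07 (2.03 to 2.11), and LP1 was slightly above Ctrl, at 0.32 (0.28 to 0.37). The level in LP4 therefore lay well apart from those of the other 2 libraries, which were within a fold of 1.5 of each other. *Ass1*, which recycles citrulline, had 48 UMIs in Ctrl against 58 in LP1 and 1238 in LP4, or 1.34, 1.11 and 20.2 CPM. Its log2 ratio of LP4 over Ctrl was 3.91 (3.49 to 4.35), and the interval of LP1 over Ctrl, -0.86 to 0.30, included 0. *Ass1* was thus low in every library and separated LP4 from the other 2.

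*Gch1*, the entry enzyme of tetrahydrobiopterin synthesis, differed less between the libraries. It gave 5605, 9129 and 15991 UMIs, or 157, 174 and 260 CPM in Ctrl, LP1 and LP4. The levels stood in the order of exposure with intervals that did not overlap, but the log2 ratio of LP4 over Ctrl was 0.73 (0.69 to 0.77), under the 2-fold limit.

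The arginases stayed low. *Arg1*, whose product is a textbook marker of macrophages exposed to interleukin-4, had 14 UMIs in Ctrl against 12 in LP1 and 35 in LP4, or 0.392, 0.229 and 0.570 CPM. These 35 UMIs came from 24 cells, and 1 cell held 7 of them. The interval of LP4 over Ctrl (-0.39 to 1.55 on the log2 scale) included 0, while that of LP4 over LP1, with a log2 ratio of 1.32, ran from 0.34 to 2.40. *Arg2* was more readily found, with 527, 553 and 1232 UMIs, or 14.8, 10.5 and 20.1 CPM. It was lowest in LP1 and highest in LP4, with log2 ratios of -0.49 (-0.66 to -0.31) for LP1 over Ctrl and 0.44 (0.29 to 0.59) for LP4 over Ctrl.

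*Odc1* gave 7590, 13962 and 18070 UMIs in Ctrl, LP1 and LP4. Counted per cell this was 1.25, 2.76 and 3.87 UMIs, but relative to the depth of the libraries it was 213, 266 and 294 CPM. The log2 ratio was 0.32 (0.28 to 0.36) for LP1 over Ctrl and 0.15 (0.11 to 0.18) for LP4 over LP1. Over all cells together, most of the small difference between LP4 and Ctrl was thus present in LP1, which did not hold in every cluster (below).

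*Acod1*, the itaconate enzyme, was present in Ctrl and LP1 and far higher in LP4. Its UMIs numbered 13818, 18077 and 133967 in the order Ctrl, LP1, LP4, or 387, 344 and 2182 CPM. LP1 was a little below Ctrl, with a log2 ratio of -0.17 (-0.20 to -0.14), and LP4 was 5.64-fold above Ctrl, with a log2 ratio of 2.49 (2.47 to 2.52). Per cell, the means were 2.28, 3.57 and 28.7 UMIs.

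**Figure D2:**
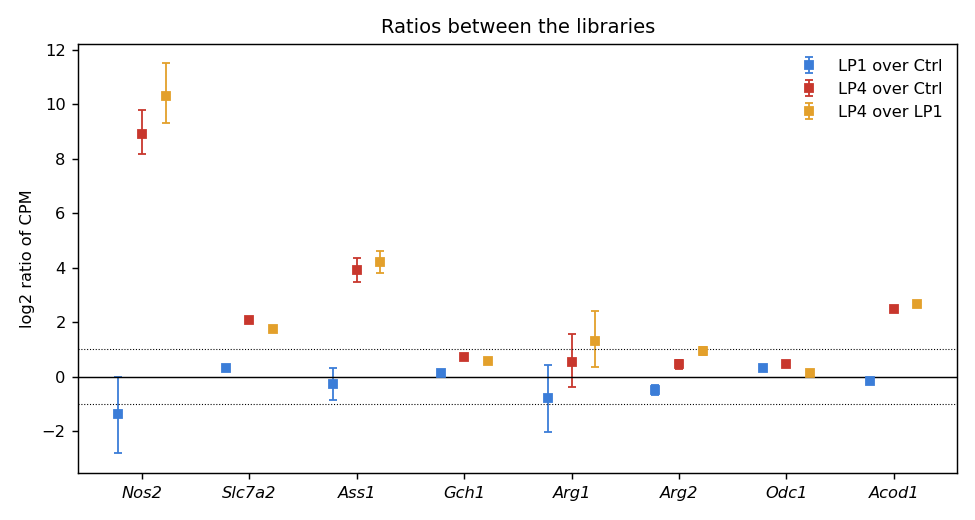
Log2 ratio of CPM between the libraries for each gene, with exact 95% intervals for counting error. Dotted lines mark 2-fold. *Nos2*, *Ass1*, *Acod1* and *Slc7a2* lie above the upper line for LP4 over Ctrl and for LP4 over LP1, and no gene does for LP1 over Ctrl.

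The share of cells with a UMI separated *Nos2* from *Acod1*. Every cell was drawn down to 2000 UMIs, and 122, 13 and 45 cells of Ctrl, LP1 and LP4 were too shallow to enter. *Acod1* was then found in 36.7%, 34.5% and 88.5% of cells, in that order. *Nos2* was found in 0.0504%, 0.0198% and 18.9% (17.8 to 20.1%) of cells. These shares depend on the depth chosen, and that of *Nos2* in LP4 was 12.4% at 1000 and 26.8% at 4000 UMIs per cell. *Slc7a2* was found in 20.1% of Ctrl cells, in 24.5% of LP1 cells and in 58.1% of LP4 cells. These 3 genes had LP4 shares above those of both other libraries, with no overlap of the intervals. The same held for *Gch1*, *Odc1*, *Ass1* and *Arg2*, given below, and not for *Arg1*.

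*Gch1* was found in 24.5%, 27.0% and 40.2% and *Odc1* in 25.2%, 29.9% and 33.4% of the thinned Ctrl, LP1 and LP4 cells. *Ass1* was found in 0.235%, 0.218% and 3.55%, *Arg2* in 3.24%, 2.20% and 4.58%, and *Arg1* in 0.0840%, 0.0396% and 0.0865% of cells. At their own depth, 36.2% of LP4 cells held *Nos2*, 84.3% *Slc7a2*, 96.4% *Acod1*, 88.6% *Gch1* and 72.6% *Odc1*. For free RNA in the droplets, 29 LP4 cells of a neutrophil-like cluster (H) gave a check. Before thinning their median depth was 9303 UMIs, against 11838 over all thinned LP4 cells. None of the 29 held *Nos2*, *Slc7a2* or *Odc1* after thinning, which allows a share of up to 10.3% if 3 cells are taken as the limit of a count of 0, with an exact upper bound of 11.9%. That zero depended on the draw, since 1 of the 29 held *Slc7a2* and 1 held *Odc1* at 1000 UMIs, 2 of 25 held *Slc7a2* at 4000, and at their own depth 1 of 29 held *Nos2*, 3 *Slc7a2* and 1 *Odc1*. At each of these depths the shares of the 3 genes over all LP4 cells lay above the exact upper bound in the neutrophil-like cells, which was at most 17.8% for *Nos2* and *Odc1* and 27.4% for *Slc7a2*. *Acod1* was found in 15 of the 29 (51.7%) and *Gch1* in 7 (24.1%), and the interval for *Gch1*, 10.3 to 43.5%, included its share over all LP4 cells. In cluster H *Acod1* was at 421, 238 and 1061 CPM in Ctrl, LP1 and LP4. Mouse neutrophils are themselves known to express *Acod1*. How much of its share there is free RNA was not tested. *Arg2* was found in 3 of the 29 (10.3%) and *Ass1* in 1 (3.45%), so the LP4 shares of these genes could not be told from those in cluster H. In cluster H *Arg2* was at 47.8, 44.6 and 43.2 CPM in Ctrl, LP1 and LP4, from 5, 6 and 11 UMIs. The whole libraries had 14.8, 10.5 and 20.1 CPM. Its share in cluster H may therefore be no measure of free RNA, which was not tested. *Arg1* was in 0 of the 29, and its share over all LP4 cells lay under the exact upper bound of 11.9%.

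**Figure D3:**
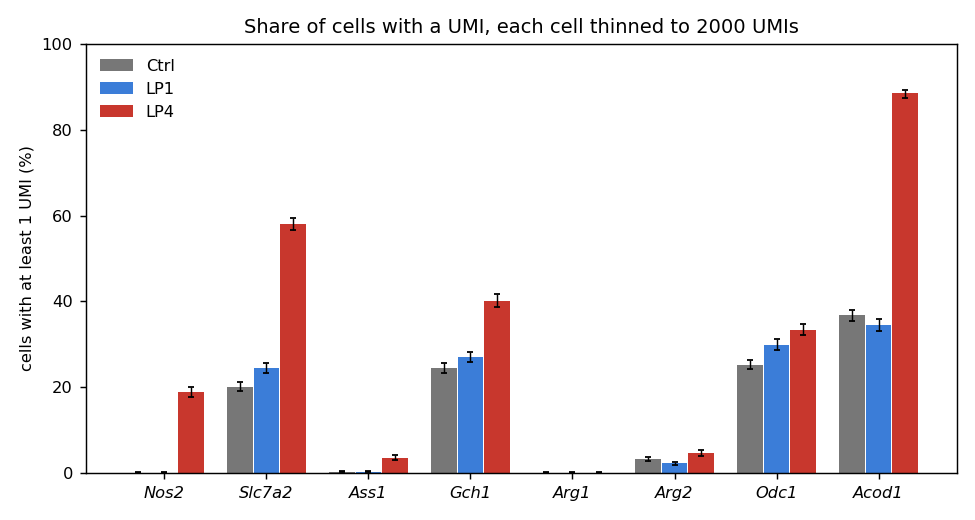
Percent of cells with at least 1 UMI of each gene after drawing each cell down to 2000 UMIs, with exact 95% binomial intervals. In LP4 the bar of *Acod1* reaches 88.5%, that of *Slc7a2* 58.1% and that of *Nos2* 18.9%.

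The UMIs of *Nos2* were held by a smaller part of the LP4 cells than those of *Acod1*. Such shares also depend on the mean level, which was 2.50 UMIs per cell for *Nos2* and 28.7 for *Acod1*. The variance over the mean was 12.2 for *Nos2* and 16.8 for *Acod1*. It too depends on the mean level and on the depth of the cells. After thinning to 2000 UMIs it was 2.65 for *Nos2* and 2.83 for *Acod1*, so it does not rank the 2 genes by unevenness. In LP4 at its own depth, the median cell held 0 *Nos2* UMIs, the 90th percentile was 9 and the highest cell held 65. The 467 cells with the most *Nos2*, 10% of all, held 64.9% of its UMIs. For *Acod1* the median LP4 cell held 25 UMIs, the quartiles were 12 and 41, and the top 467 cells held 25.9% of the UMIs. *Slc7a2* lay between them, with a median of 6 UMIs and 35.7% in the top 467 cells. *Gch1* (median 3) and *Odc1* (median 2) had 28.5% and 44.9% there. The rarer *Ass1* and *Arg2* had 77.4% and 68.7%.

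LP4 cells with a *Nos2* UMI held *Acod1* more often than those without. After thinning, 874 cells had a *Nos2* UMI and 3751 had none, and *Acod1* was found in 96.2% (94.7 to 97.4%) of the former and 86.7% (85.5 to 87.7%) of the latter. *Odc1* was found in 38.2% and 32.3%, and for *Slc7a2* and *Gch1* the intervals of the shares overlapped. The cells come from 1 library, so these shares describe that library.

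Cells were also grouped into clusters without use of the 8 genes or their pathways, and 7 clusters with at least 50 cells per library (A to G) were compared by letter. Clusters A to F held macrophage markers, with leading genes that included *Egr3* and *Apoe* in A, *Hal* and *Gas6* in B, *Fabp4* in C, *Mmp12* and *Ctsk* in D, the replication genes *Mcm3* and *Mcm5* in E, and the histone and mitosis genes *Hist1h1b* and *Aspm* in F. Cluster G was called dendritic cell-like by its leading genes, among them *H2-Eb1*, *H2-Aa* and *Ccl22*. It too held macrophage markers, with 8 of 9 found in at least 50% of its cells. *Nos2* was found in all 7 clusters of LP4, from 101 CPM (95.8 to 107) in D to 244 CPM (230 to 258) in F. D was thus the lowest cluster for *Nos2*, and the other 6 lay between 182 and 244 CPM. The range depends on how finely the cells are divided, since 9 clusters at resolution 0.8 ran from 86.9 to 412 CPM. The 412 CPM came from a cluster led by *Egr3* and *Slc9a9* with 154 LP4 cells, 3.30% of LP4 but 27.7% of Ctrl. Another cluster at that resolution held 23.6% of LP4 and 1.93% of Ctrl cells. Whether a cluster such as A holds the same kind of cell in each library was not tested.

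*Slc7a2* and *Acod1* had opposite orders over clusters A and D in Ctrl, and the difference between clusters was smaller in LP4. *Slc7a2* ran from 41.0 CPM in A to 358 CPM in D in Ctrl, an 8.72-fold range, and from 449 CPM in F to 1215 CPM in G in LP4, a 2.71-fold range. Its log2 ratio of LP4 over Ctrl was 3.99 (3.82 to 4.16) in A and 1.24 (1.18 to 1.31) in D. *Acod1* ran from 161 CPM in D to 692 CPM in A in Ctrl, a 4.31-fold range, and from 1482 CPM in D to 2621 CPM in A in LP4, a 1.77-fold range. Here the ratio was lowest in A, at 1.92 (1.88 to 1.96), and highest in E, at 3.21 (3.11 to 3.32), with D at 3.21 (3.12 to 3.30). For both genes the largest ratio was found where the Ctrl level was low, in the lowest cluster for *Slc7a2* and in the 2 lowest for *Acod1*. The Ctrl level is the denominator of that ratio, so the ratio and the level are not independent.

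*Odc1* was highest in cluster E in every library, at 412, 479 and 502 CPM. It was lowest in A in Ctrl (111 CPM), and there its log2 ratio of LP4 over Ctrl was 1.11 (0.99 to 1.22), against 0.10 (-0.30 to 0.50) in G. In A the log2 ratio of *Odc1* was 0.24 (0.11 to 0.37) for LP1 over Ctrl and 0.86 (0.77 to 0.96) for LP4 over LP1. In that order the ratios were 0.09 and 0.34 in C and 0.26 and 0.28 in D. In B, E, F and G the ratio of LP1 over Ctrl was the larger. *Gch1* differed less between clusters. Its log2 ratio of LP4 over Ctrl ran from 0.52 (0.44 to 0.60) in A, its highest Ctrl cluster at 251 CPM, to 1.12 (1.00 to 1.24) in D. *Arg2* in LP4 ran from 4.42 CPM (3.36 to 5.70) in D to 50.8 CPM (46.7 to 55.2) in A. Its Ctrl levels in D and A were 5.00 and 29.6 CPM, so A was above D before and after exposure. *Ass1* in LP4 was highest in the dendritic cell-like cluster G, at 53.8 CPM (38.8 to 72.7), and lowest in C, at 15.0 CPM (12.3 to 18.1).

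**Figure D4:**
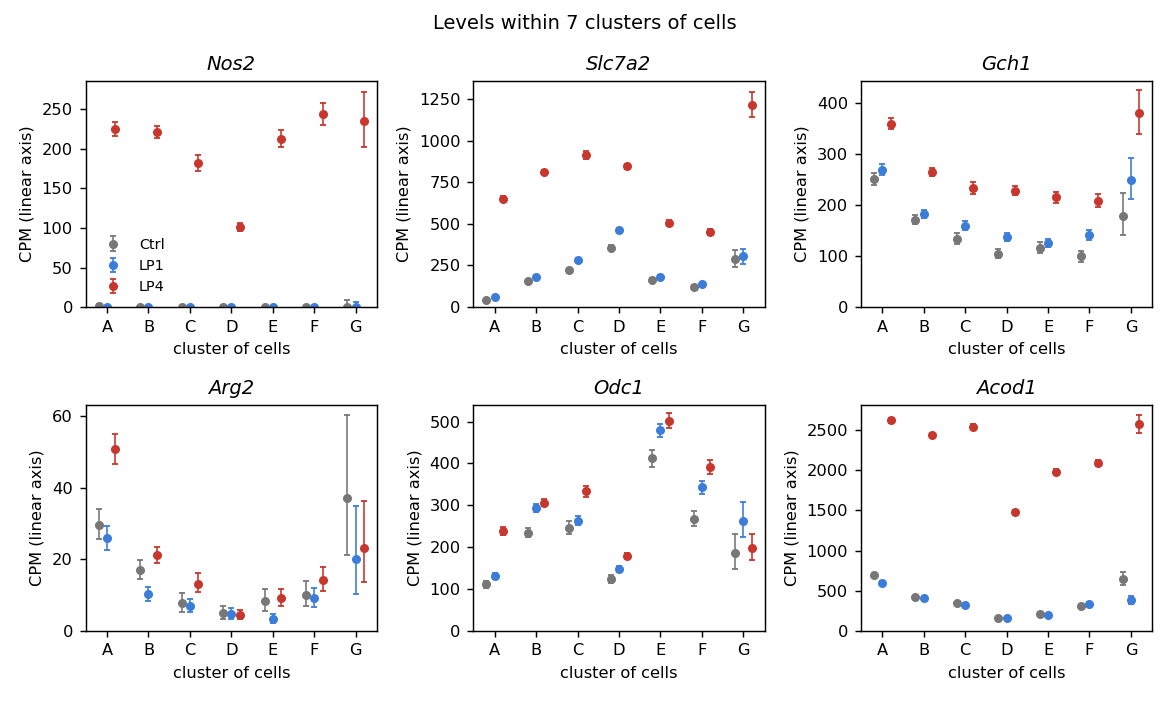
Level in CPM (linear axes from 0) of 6 genes in clusters A to G of each library, with exact 95% Poisson intervals. *Slc7a2* in Ctrl is lowest in A and highest in D, *Acod1* is the reverse, *Odc1* is highest in E in every library, and *Nos2* in LP4 is lowest in D at 101 CPM.

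Within LP4, likeness over the 4670 cells was taken among 3221 other genes with at least 50 CPM there. Of these, the genes whose levels varied most like *Acod1* were *Gbp5* (Pearson r = 0.30), *Aoah* (0.30) and *Clec4e* (0.28). For *Slc7a2* they were *Mob3b* (0.28), *Malt1* (0.23) and *Cybb* (0.22), for *Odc1* *Ccnd1* (0.22), *Lpl* (0.18) and *Pcdh7* (0.18), and for *Gch1* *Ifitm3* (0.18), *Itm2b* (0.17) and *Isg15* (0.17). Among the 8 genes the largest r was that of *Nos2* with *Acod1*, at 0.22. The 3 genes most like *Odc1* varied with the depth of the cells (r = 0.24, 0.32 and 0.24 with its log) more than with *Odc1*, which itself had r = 0.11 with depth. For *Acod1* the r with depth was 0.02, for *Slc7a2* 0.14 and for *Gch1* 0.08. All these values are low, all cells share 1 library, and they are given as a description.

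The other genes of these pathways and their known regulators were counted beside the 8 genes. Of a list of 61 such genes, 55 had at least 20 UMIs in LP4 and Ctrl together, of which 4 were at least 2-fold higher and 8 at least 2-fold lower in LP4, with a median log2 ratio of -0.39. This is 7.27% and 14.5% of them, beside 11.6% and 15.6% of all genes, and the median of all genes was -0.15. For LP1 over Ctrl 2 were higher (3.64%, beside 1.45% of all genes) and none lower (beside 3.15%), with a median of 0.02. For LP4 over LP1 3 were higher (5.45%, beside 10.9%) and 8 lower (14.5%, beside 12.5%), with a median of -0.36. The 2 in LP1 were *Cebpb* and, from 63 UMIs in all, the endothelial synthase gene *Nos3*, which was named after its values were seen.

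Of 5 uptake genes, 1 was 2-fold higher in LP4 than in Ctrl (20%, beside 11.6% of all genes). None was 2-fold lower (beside 15.6%), and the median log2 ratio was -0.55. The higher one was the cystine transporter gene *Slc7a11*, at 304, 443 and 1153 CPM in Ctrl, LP1 and LP4. Its log2 ratio of LP4 over Ctrl was 1.92 (1.89 to 1.95). *Slc7a1* (-0.70), *Slc7a7* (-0.62) and *Slc7a6* (-0.55) had intervals below 0 and were named after their values were seen. *Slc3a2*, the heavy chain that pairs with several amino acid transporters, had a ratio of -0.02 (-0.06 to 0.02). Of 7 citrulline and nitric oxide genes, none was 2-fold higher (beside 11.6% of all genes) and 2 were lower (28.6%, beside 15.6%), *Nosip* (-1.01) and *Nostrin* (-1.05), which were named after their values were seen. The reductase gene *Cyb5r3* was at -0.31. None of 5 tetrahydrobiopterin genes was 2-fold higher (beside 11.6% of all genes) or 2-fold lower (beside 15.6%). The intervals of 4 lay below 0 and that of 1, *Pts* (0.82), lay above 0. *Spr* (-0.98) and *Gchfr* (-0.99) were just short of 2-fold lower. *Pts*, *Spr* and *Gchfr* were named after their values were seen. *Qdpr*, which regenerates the cofactor, was at -0.45 (-0.53 to -0.36). None of the 3 ornithine genes with enough UMIs was 2-fold higher (beside 11.6% of all genes) or 2-fold lower (beside 15.6%).

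Of the 11 polyamine genes, 1 was 2-fold higher in LP4 than in Ctrl (9.09%, beside 11.6% of all genes) and 2 were lower (18.2%, beside 15.6%). The higher one was *Sat1*, which acetylates spermidine and spermine for export or breakdown, at 219, 331 and 618 CPM, with a log2 ratio of 1.49 (1.46 to 1.53). Spermine oxidase (*Smox*) was at -1.08 (-1.14 to -1.02) and spermine synthase (*Sms*) at -0.72 (-0.77 to -0.68), and *Dhps*, which starts the conversion of a lysine in eIF5A to hypusine, was at -0.44. The second gene that was 2-fold lower was the polyamine oxidase *Paox* (-1.15), named after its value was seen.

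Of 13 genes around itaconate and the citrate cycle, none was 2-fold higher in LP4 (beside 11.6% of all genes) and 1 was lower (7.69%, beside 15.6%). Citrate synthase (*Cs*) was at 0.65 (0.56 to 0.75), the mitochondrial citrate carrier *Slc25a1* at -0.69 (-0.77 to -0.62), the succinate dehydrogenase subunit *Sdhb* at -0.64 (-0.70 to -0.58) and *Idh1* at -0.29 (-0.35 to -0.23). The gene past 2-fold was *Clybl* (-1.61), which acts in the breakdown of itaconate and was named after its value was seen. *Acod1*, at 2.49, thus lay apart from its neighbours in the cycle.

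Among 11 genes of transcription factors known for such promoters, 2 were 2-fold higher (18.2%, beside 11.6% of all genes) and 3 lower (27.3%, beside 15.6%) in LP4 than in Ctrl. *Cebpb* was at 98.8, 346 and 1657 CPM, with log2 ratios of 1.81 (1.76 to 1.86) for LP1 over Ctrl and 4.07 (4.02 to 4.12) for LP4 over Ctrl. It was the 1 factor gene of the 11 past 2-fold at 1 hour. *Hif1a*, the oxygen-regulated subunit of hypoxia-inducible factor, was at 131, 123 and 534 CPM and so stood higher in LP4 alone, with a log2 ratio over Ctrl of 2.02 (1.98 to 2.07). *Irf1* was at 181, 159 and 205 CPM, and its LP4 over Ctrl value was 0.18 (0.14 to 0.22). *Egr2* was at 103, 134 and 5.88 CPM, a log2 ratio of -4.13 (-4.29 to -3.97). *Pparg* was at 57.0, 62.0 and 24.5 CPM, a log2 ratio of -1.22 (-1.32 to -1.12). The other gene past 2-fold was *Myc* (-2.59), named after its value was seen.

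**Figure D5:**
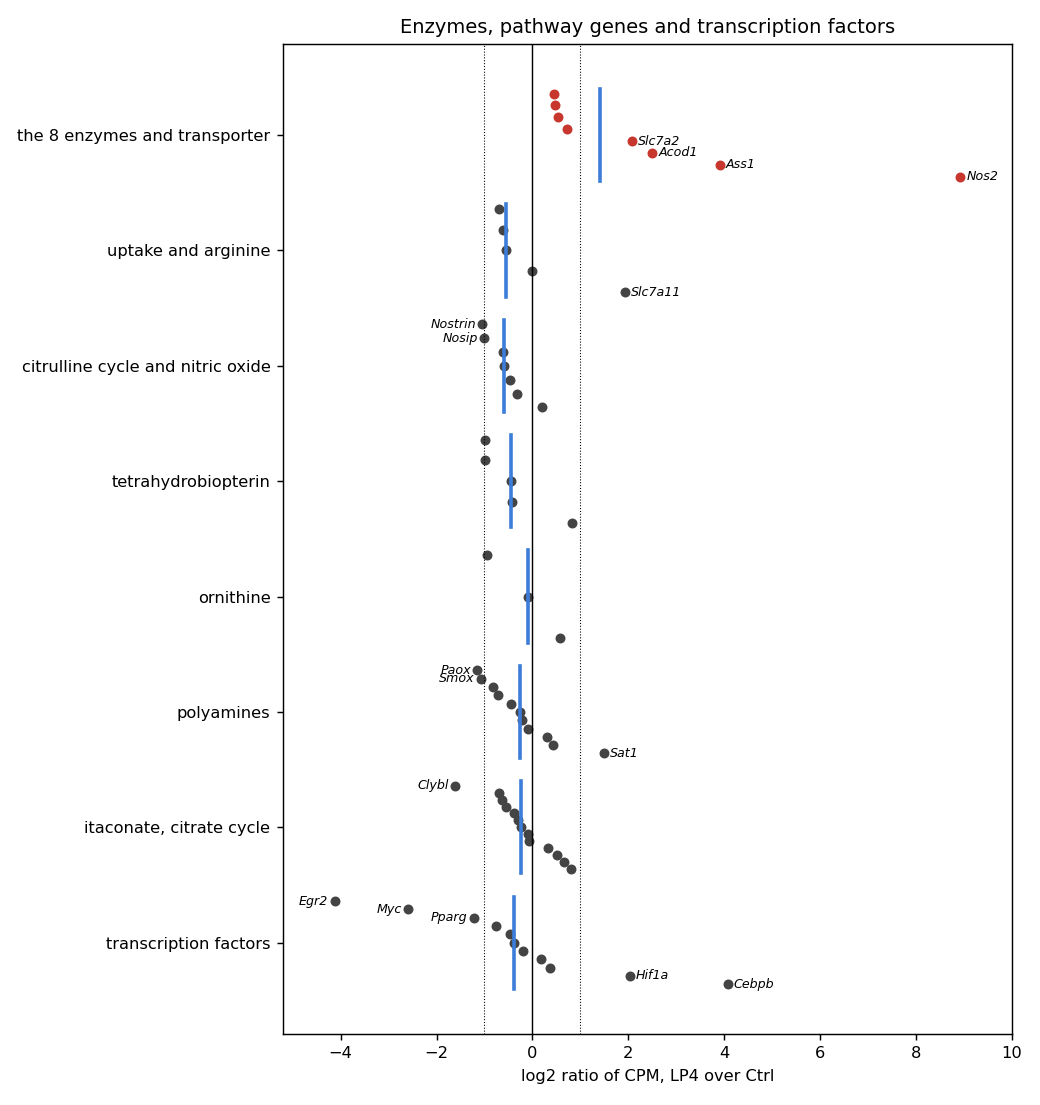
Log2 ratio of LP4 over Ctrl for the 8 genes (red) and, by group, the pathway and transcription factor genes with at least 20 UMIs (dark grey), with blue bars at the group medians and dotted lines at 2-fold. Names are given for genes past 2-fold. The median is 1.40 for the 8 genes and below 0 for each other group.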

How the data were processed

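The authors deposited UMI counts per gene and cell for 3 libraries, made with Cell Ranger on the mouse build mm10. The submitters' processing notes and the file headers give version 7.1.0, while the study's methods name another release. Each library pooled cells of 3 replicates according to the study, so the spread between these is lost. The study's culture methods describe marrow pooled before growth. Its single-cell methods instead describe BMDMs of 3 mice that were treated separately and pooled afterwards. The counts were used as deposited. Cells were kept by the study's limits (over 500 UMIs, over 500 genes, under 5% mitochondrial UMIs), which left 15806 of 16281 barcodes here. The study states a smaller number of cells for its analysis, and further steps were not used here. The summed UMIs of kept cells were 35688939 (Ctrl), 52475723 (LP1) and 61402275 (LP4).

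Counts of kept cells were summed per library and scaled to CPM. Ratios were taken with exact binomial intervals and levels with exact Poisson intervals (95%), and genes at 0 were set to a floor of 3 counts per library. A gene counted as higher or lower at 2-fold or more, with at least 20 UMIs in the 2 libraries. The calculation was tested on simulated data. Clusters came from the Leiden method (scanpy 1.11.5, leidenalg 0.10.2, resolution 0.5, 30 components of 2000 variable genes). The 8 genes, the pathway list and the mitochondrial and ribosomal protein genes were left out. The 2000 genes came from 5215 with at least 200 UMIs that differed by under 1.5-fold between the libraries. Values were centred within each library. The clusters thus rest on genes that differed little between the libraries. No doublets were removed in the results given first, and leaving out the top 5% of doublet scores was an alternative. Further tools were Python 3.11.15, scipy 1.17.1 and edgeR 4.0.16 (TMM factors alone).

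The genes and lists were chosen with earlier results of these data known. Named were the 8 genes, *Irf1* and *Cebpb*. From each pathway group came at most 4 genes among those with at least 50 CPM in 1 library. These had the largest log2 ratios of LP4 over Ctrl in either direction. Where 1 of the 8 genes was seen in at least 20% of thinned LP4 cells, its 3 most correlated genes in LP4 were named. *Nos2*, at 18.9%, was under that limit. A further gene of the pathway list is not reported here.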

Additional observations from a re-analysis of the deposited data

Results flagged for a closer look

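The LP4 barcodes that the cell limits left out, which entered no comparison, carried 4 of the 8 transcripts above their counterparts in Ctrl. The same count was not made over all genes, so whether 4 of 8 is more than usual is not known. In LP4, 369 barcodes with 3384864 UMIs were left out, against 52 with 60985 UMIs in Ctrl and 54 with 298183 UMIs in LP1. The mitochondrial limit alone removed 273 of those in LP4, 18 in Ctrl and 43 in LP1, so the barcodes left out differed in kind. These LP4 barcodes held *Nos2* at 142 CPM, *Slc7a2* at 633 CPM, *Odc1* at 332 CPM and *Acod1* at 1715 CPM. Each value lay above the upper bound of the interval in the Ctrl barcodes left out, which was 60.5 CPM for *Nos2*, 344 CPM for *Slc7a2*, 214 CPM for *Odc1* and 683 CPM for *Acod1*. In kept LP4 cells the levels were 190, 739, 294 and 2182 CPM. *Ass1* was at 20.4 CPM in the LP4 barcodes left out and 20.2 CPM in kept LP4 cells. Its bound in the Ctrl barcodes left out was 60.5 CPM, from 0 UMIs, so it could not be among the 4.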

How the results depend on the processing

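Counts of the 8 genes past 2-fold were recomputed under 11 alternatives in each of 6 comparisons and directions, and 64 of 66 stayed within 1.5 times the count first given. The exceptions were both for genes lower in LP1 than in Ctrl, where the count of 1 (*Nos2*) became 0 with a minimum of 200 UMIs, which *Nos2* with 22 UMIs could not reach, and 2 (*Nos2* and *Arg1*) at 1.5-fold. Between LP4 and LP1 the 5 higher genes became 4 with a minimum of 200 UMIs, without *Arg1*, and 6 under TMM, median-of-ratios scaling and 1.5-fold, with *Arg2* added. Log2 ratios of the 8 genes kept their sign in 64 of 64 recomputed values in each pair of libraries, over other cell limits, scalings and cell sets. For *Nos2* the ratio of LP4 over Ctrl ran from 8.59 to 9.13, for *Slc7a2* from 2.05 to 2.28, for *Ass1* from 3.82 to 4.18 and for *Acod1* from 2.40 to 2.70. Over all genes, 1.5-fold gave 20.7% higher and 29.4% lower in LP4 than in Ctrl, and with no gene minimum 24.0% were lower, against 11.6% and 15.6%. In LP1 against Ctrl the shares of 1.45% and 3.15% became 8.24% and 14.1% with no minimum, 5.78% and 9.07% at 1.5-fold, and 0.80% and 0.646% with 200 UMIs, and in LP4 against LP1 those at 1.5-fold were 18.8% and 24.4%. With no minimum, a gene at 0 in 1 library takes the floor of 3 counts there. If it had fewer than 3 UMIs in the other library, its ratio takes the wrong direction. The shares with no minimum include such genes, so they do not give the true split into higher and lower. The excess of *Acod1* detection in LP4 cells with *Nos2*, 9.55 percentage points at 2000 UMIs, was 5.60 at 4000. Shares of cells moved out of their first intervals in 63 of 96 recomputed values, with *Ass1* in LP4 at 1.68% for 1000 and 6.30% for 4000 UMIs per cell against 3.55%. At 2 other cluster resolutions 69 of 96 lowest and highest values stayed in their intervals. No paired analysis was possible because each condition has 1 library. With 1 library per condition no replicate could be left out, and in LP1 and Ctrl depth limits *Nos2* and *Arg1*, with 22 and 26 UMIs.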
